A study of Homo sapiens with 4 samples.

Results

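A set of 51 genes of DNA replication was followed in BICR10 cells after silencing of YEATS2. The set was chosen by gene symbol, with earlier results of these data known. It comprised the genes that mark and license origins, the replicative helicase and its activators, the DNA polymerases, the sliding clamp and its loader, Okazaki fragment processing, replication protein A, deoxynucleotide supply, and the E2F1 to E2F3 regulators with UHRF1. All 51 symbols were present among the 60623 genes of the count tables, and all 51 passed the filter on low counts.

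BICR10 is an established line derived from a cancer of the head and neck in humans. The 2 shControl libraries came from cells transduced with lentivirus carrying a control hairpin, and the 2 shYEATS2 libraries from cells transduced with a hairpin against YEATS2, a histone reader. Cells of both groups were transduced and then selected with puromycin, and the comparison asked how YEATS2 silencing altered gene expression. The study used 2 hairpins against YEATS2, and which of them each library carried is not given in the sources used here. The labels do not say whether libraries of a group came from separate cultures, so that the p-values measure only the spread between these libraries, which may be technical.

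YEATS2 itself stood at 66.1 and 66.7 CPM (counts relative to the TMM-scaled library total) in shControl and at 29.2 and 29.1 CPM in shYEATS2, a log2 fold change of −1.19 (SE 0.08, adjusted p = 3.55e-21, edgeR). Gene totals were 47297970 and 39824898 counts in shControl and 24072396 and 11334133 in shYEATS2, so that lower depth cannot be told apart from the hairpin. A member was covered by 263 to 10109 counts in the deepest library and by 51 to 1723 in the shallowest. Of 10 squamous markers 8 were tested, and 4 were lower and 0 higher, with log2 fold changes from −3.78 to 0.48. In 1 of them both shYEATS2 libraries were above both controls. TP63 had at most 3 counts in any library and KRT14 about 1.2 CPM in shControl. KRT5 stood at 16.4 and 15 CPM in shControl and 1.03 and 1.36 CPM in shYEATS2. The summed level of the 8 tested squamous markers was 226 to 229 against 178 to 194 CPM, most of it from markers not named here. Of 9 fibroblast markers, collagens included, 8 were tested and 7 were lower. The summed level of these 8 was 7212 to 7302 CPM in shControl and 2224 to 2363 CPM in shYEATS2. Of 8 leukocyte and endothelial markers only 2 were tested. Their summed level was 35.4 to 36.4 against 18.3 to 19.3 CPM, nearly all of it KDR, while PTPRC had at most 5 counts and CD3E none. The part of these marker shifts in the results below was not tested.

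In the G1 phase, the origin recognition complex (ORC), CDC6 and CDT1 load the MCM2-7 helicase onto origins, and geminin holds CDT1 back once S phase has begun. CDC45 and the GINS complex then join MCM2-7 to form the active helicase. Polymerase alpha with primase starts each strand, polymerases epsilon and delta extend it on the PCNA clamp, and FEN1 and LIG1 finish the lagging strand. Many of these genes are known targets of the E2F transcription factors and are transcribed together as cells pass from G1 into S phase. In bulk RNA, fewer cells in S phase and less RNA per cell cannot be told apart.

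Because E2F factors are known for promoters of this family, the RefSeq promoters (GRCh38.p14; 250 bases before to 50 bases after the start, 300 bases in all) were searched for the E2F-type letters TTTCCCGC and TTTGGCGC on both strands, the reverse strand reading GCGGGAAA and GCGCCAAA. The motifs differ in their letters, so that no stretch matches both, although neighbouring matches can share bases at their ends. Promoters were held for 45 of the 51 members. None was held for MCM4, MCM5, GINS4, POLD3, RPA2 and RPA3, so that these were not searched. At least 1 match lay in 21 of the 45 (46.7%), against 631 of 27305 (2.31%) of all promoters and 406 of 11002 (3.69%) of the promoters of the tested genes. The match is a description of the letters and not a site. Windows around the match are shown for helicase, clamp, clamp loader and polymerase members that fell by at least 0.5 on the log2 scale in the comparison below, for the CDC6 and CDT1 loaders, and for ORC3, which carried the letters without passing the test. Each is read 5′ to 3′ on the strand of the gene, with the matching letters in capitals.
MCM3 (chr6:52284889-52284936, minus strand): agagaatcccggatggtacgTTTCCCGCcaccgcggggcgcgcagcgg
MCM6 (chr2:135876506-135876615, minus strand, 2 matches): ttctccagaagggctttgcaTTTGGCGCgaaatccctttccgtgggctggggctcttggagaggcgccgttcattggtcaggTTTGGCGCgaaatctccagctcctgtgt
MCM7 (chr7:100101557-100101604, minus strand): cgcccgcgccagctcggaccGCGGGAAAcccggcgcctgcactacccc
PCNA (chr20:5126654-5126701, minus strand): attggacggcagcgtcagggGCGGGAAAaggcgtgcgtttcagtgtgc
RFC3 (chr13:33818074-33818121, plus strand): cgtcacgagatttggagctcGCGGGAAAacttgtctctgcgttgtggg
POLE2 (chr14:49688192-49688239, minus strand): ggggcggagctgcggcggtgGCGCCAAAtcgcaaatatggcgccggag
POLA1 (chrX:24693761-24693808, plus strand): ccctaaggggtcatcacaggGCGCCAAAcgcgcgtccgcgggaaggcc
CDC6 (chr17:40287866-40287913, plus strand): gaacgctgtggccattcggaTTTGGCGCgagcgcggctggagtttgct
CDT1 (chr16:88803734-88803781, plus strand): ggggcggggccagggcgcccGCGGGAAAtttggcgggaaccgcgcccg
ORC3 (chr6:87590103-87590150, plus strand): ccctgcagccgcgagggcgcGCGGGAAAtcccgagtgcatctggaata

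Replication genes were mostly lower in shYEATS2 than in shControl. With the quasi-likelihood test of edgeR, adjusted by Benjamini-Hochberg across all 17058 tested genes, 34 of the 51 members (66.7%) fell, against 23.6% of all tested genes, and 4 rose, against 22.6% of all. The 4 that rose were ORC6, PRIM2, RPA2 and TK1, and 13 did not pass the test. The median log2 fold change of the members was −0.26 with quartiles of −0.51 and −0.03, beside a median of −0.01 over all tested genes. The falls were modest: the median member among those that fell was at 74.8% of its control level, and 0 members passed a limit of 2-fold in edgeR or DESeq2, which 3.7% of all tested genes passed downward and 5.99% upward in edgeR. DESeq2 called 25 members lower and 2 higher, against 17.3% and 16.5% of all tested genes.

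For 36 members each shYEATS2 library was below each shControl library, against 36.3% of all tested genes, and for 6 each was above, against 35.3% of all. The groups overlapped for the other 9. Members summed to 3688 and 3779 CPM in shControl and to 2965 and 2870 CPM in shYEATS2. Taken for each pair of a shYEATS2 with a shControl library, the median over the members was between −0.35 and −0.23. A fall of at least 0.5 on the log2 scale was called for 13 members, against 10.6% of all tested genes, and these were 5 of the 6 MCM2-7 subunits, PCNA, RFC3, FEN1, LIG1, POLA1, POLD3, POLE2 and RRM2. Scaling by library totals alone shifted the median of all tested genes to 0.13, and with it 21 members were lower and 7 higher, against 15% and 31.9% of all tested genes. With every library thinned to the smallest total, 30 members were lower and 3 higher, and the median was −0.24. The share of all tested genes was not taken for the thinned counts. The 3 further members that passed upward with library totals were CDT1 (0.21), E2F3 (0.30) and RPA3 (0.28).

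**Figure D1:**
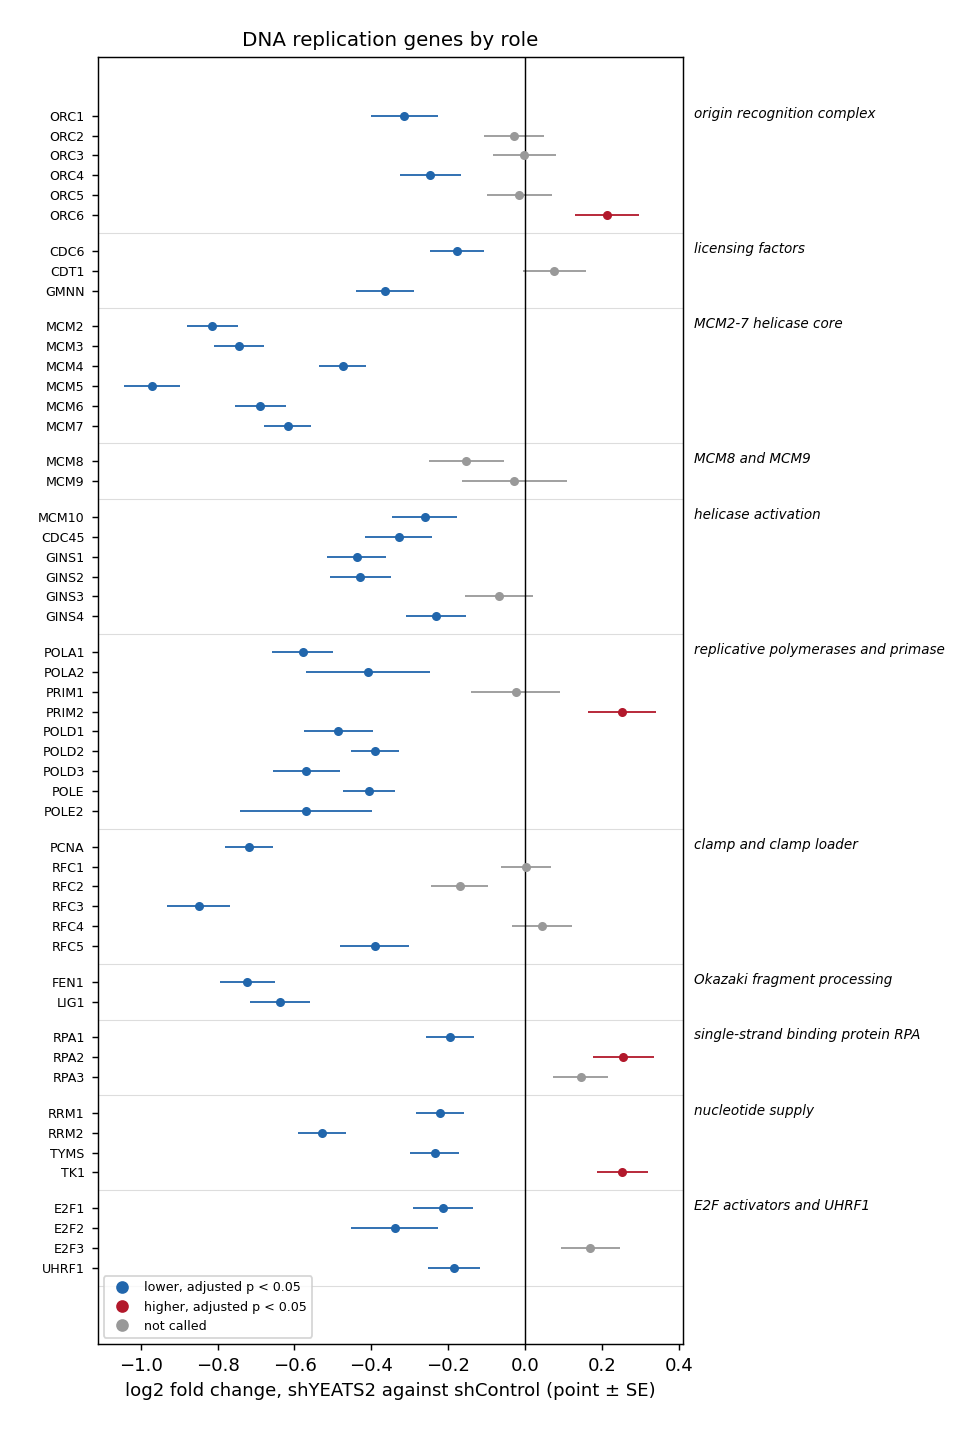
Log2 fold change of shYEATS2 over shControl (horizontal axis) for each of the 51 members grouped by role, with bars for the standard error, blue points for members called lower by edgeR, red points for those called higher and grey points for those not called. All 6 MCM2-7 subunits lie between −0.97 and −0.48. Members lie on both sides of 0 in ORC, replication protein A, licensing, polymerases, clamp and loader, nucleotide supply, and the E2F group.

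The origin recognition complex showed little shift as a whole. ORC marks origins and serves as the platform for helicase loading. Of its 6 subunits, ORC1 and ORC4 fell, ORC6 rose and ORC2, ORC3 and ORC5 did not pass the test, with a median log2 fold change of −0.02. ORC1 (ENSG00000085840, chr1:52372829-52404423), the subunit whose level varies through the cell cycle, was at 31.1 and 32.5 CPM in shControl and 25.7 and 25.3 CPM in shYEATS2. The groups did not overlap, and its log2 fold change was −0.31 (SE 0.09, adjusted p = 0.00209, edgeR). ORC4 fell less, with a log2 fold change of −0.25 (SE 0.08, adjusted p = 0.00805, edgeR). With library totals alone neither passed (ORC1 −0.18, adjusted p = 0.0798; ORC4 −0.11, adjusted p = 0.251). ORC4 was also lost with DESeq2 (adjusted p = 0.0513) and with thinned counts (−0.14, adjusted p = 0.219). ORC1 was lost without shControl replicate 2 (−0.29), and ORC4 when either shControl library was left out (−0.26 each time).

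ORC6 (ENSG00000091651, chr16:46689643-46698394), the smallest subunit, was at 31.6 and 33.7 CPM in shControl and 39.6 and 35.2 CPM in shYEATS2. The higher shYEATS2 library carried most of the difference, and the log2 fold change was 0.21 (SE 0.08, adjusted p = 0.0301, edgeR). The call did not hold with DESeq2 (adjusted p = 0.126), and without shYEATS2 replicate 1 the log2 fold change was 0.10. ORC2, ORC3 and ORC5 had log2 fold changes of −0.03, −0.00 and −0.02 with overlapping groups. The count ratio of ORC1 to ORC2 within a library, which does not depend on scaling between libraries, was 0.704 and 0.680 in shControl and 0.596 and 0.533 in shYEATS2.

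Among the licensing factors, the loader CDC6 and the inhibitor GMNN fell, and CDT1 did not pass the test. GMNN (geminin; ENSG00000112312, chr6:24774931-24786099) binds CDT1 and prevents a second round of licensing. Its level was 57.7 and 53.8 CPM in shControl and 42.7 and 44.1 CPM in shYEATS2. Every shYEATS2 value was below every shControl value, with a log2 fold change of −0.36 (SE 0.08, adjusted p = 4.69e-05, edgeR). CDC6 had a log2 fold change of −0.18 (SE 0.07, adjusted p = 0.0309, edgeR), but did not pass with DESeq2 (adjusted p = 0.110), with thinned counts (adjusted p = 0.116) or with library totals alone, where it was at −0.04 (adjusted p = 0.625).

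CDT1, which brings MCM2-7 to ORC and CDC6, was at 36.8 and 39.3 CPM in shControl and 42.8 and 36.1 CPM in shYEATS2. These groups overlapped, and its log2 fold change was 0.07 (SE 0.08, adjusted p = 0.481, edgeR). The count ratio of GMNN to CDT1 was 1.57 and 1.37 in shControl and 0.998 and 1.22 in shYEATS2. The shYEATS2 libraries differed among themselves, and the difference between the groups was not tested.

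The MCM2-7 helicase was the role group with the lowest median. All 6 subunits, which form the ring that unwinds DNA ahead of the fork, fell, and their summed level was 959 to 978 CPM in shControl and 586 to 622 CPM in shYEATS2. The median log2 fold change was −0.72, and −0.58 with library totals alone.

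MCM5 (ENSG00000100297, chr22:35400134-35425431) fell the most of all 51 members. It was at 95 and 95.5 CPM in shControl and 51.8 and 44.3 CPM in shYEATS2, or 95.3 ± 0.310 against 48.0 ± 5.30 CPM (SD, n = 2). The groups were far apart, and the log2 fold change was −0.97 (SE 0.07, adjusted p = 1.02e-18, edgeR), 51.0% of the control level. MCM2, which also binds histones at the fork, was at 129 and 128 CPM in shControl and 75.8 and 70.1 CPM in shYEATS2. Its log2 fold change was −0.81 (SE 0.07, adjusted p = 7.14e-17, edgeR).

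MCM3, the partner of MCM5 in the ring, was at 186 and 182 CPM in shControl and 117 and 101 CPM in shYEATS2, with a log2 fold change of −0.75 (SE 0.06, adjusted p = 1.61e-15, edgeR). MCM6 was at 130 and 141 CPM in shControl and 81.9 and 86.9 CPM in shYEATS2, with a log2 fold change of −0.69 (SE 0.07, adjusted p = 4.99e-14, edgeR). In each case both shYEATS2 libraries were clearly below both controls. MCM7 was at 223 and 233 CPM in shControl and 151 and 146 CPM in shYEATS2, with a log2 fold change of −0.62 (SE 0.06, adjusted p = 1.51e-13, edgeR).

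MCM4 changed the least of the ring. Together with MCM6 and MCM7 it forms the part of the ring with helicase activity in isolation. Its level was 195 and 198 CPM in shControl and 145 and 137 CPM in shYEATS2, and the log2 fold change was −0.48 (SE 0.06, adjusted p = 1.16e-09, edgeR). The count ratio of MCM5 to MCM4, the subunits with the largest and the smallest fall and chosen for that after the values were seen, was 0.488 and 0.483 in shControl and 0.357 and 0.323 in shYEATS2. Counting limits applied to MCM2, where 1113 of 4715 exonic bases overlap a gene on the other strand, and to MCM7, which shares 29 exonic bases with a microRNA on its own strand.

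**Figure D2:**
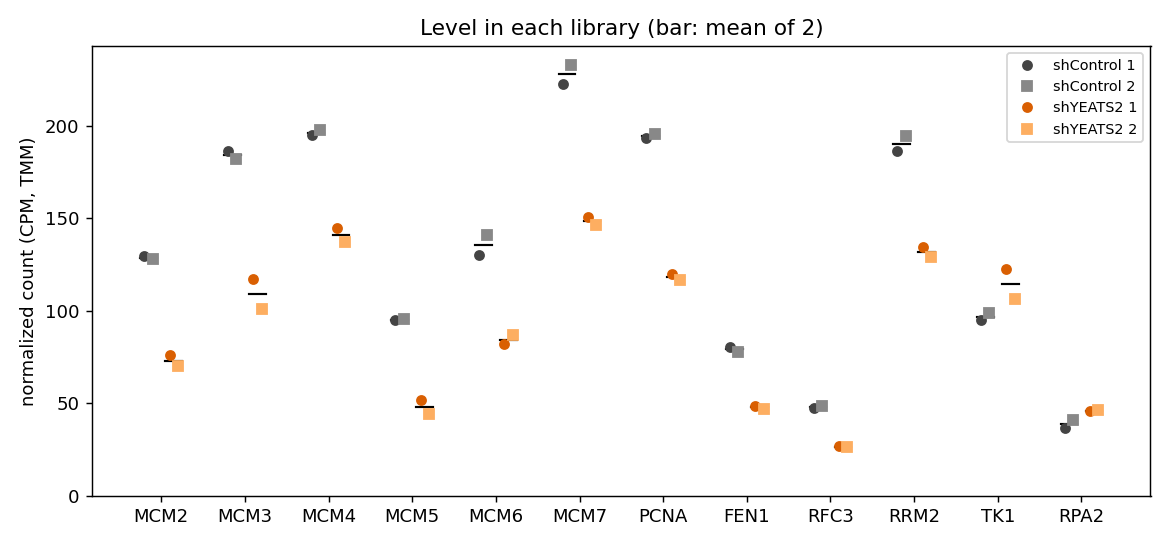
Level in each of the 4 libraries (TMM-scaled CPM, linear axis from 0) for MCM2-7, PCNA, FEN1, RFC3, RRM2, TK1 and RPA2, with grey points for shControl, orange points for shYEATS2 and bars at the mean of 2 libraries. For MCM5 the shControl libraries sit at 95 and 95.5 CPM and the shYEATS2 libraries at 51.8 and 44.3 CPM, while TK1 and RPA2 are the members shown whose shYEATS2 libraries are above the controls.

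MCM8 and MCM9, relatives of the ring that act together in homologous recombination and not in licensing, did not pass the test. MCM8 was at 21.8 and 21.1 CPM in shControl and 18.2 and 21.0 CPM in shYEATS2 (log2 fold change −0.15, SE 0.10). MCM9 was at 9.19 and 7.99 CPM in shControl and 8.09 and 8.99 CPM in shYEATS2 (log2 fold change −0.03, SE 0.14). The difference between this pair and MCM2-7 was not tested, and MCM8 shares 2564 of its 7691 exonic bases with other genes on its strand.

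Helicase activators fell in 5 of 6 cases, with a median log2 fold change of −0.30. DESeq2 called 3 of the 6 lower, and library totals alone left GINS1 and GINS2. GINS1 (ENSG00000101003, chr20:25391008-25452700), a subunit of the GINS complex that bridges the helicase and polymerase epsilon, was at 49.9 and 52.8 CPM in shControl and 37.9 and 37.8 CPM in shYEATS2. The groups were well separated, and the log2 fold change was −0.44 (SE 0.08, adjusted p = 2.48e-06, edgeR). GINS2 was similar, with a log2 fold change of −0.43 (SE 0.08, adjusted p = 6.3e-06, edgeR).

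CDC45, the other partner of MCM2-7 in the active helicase, had a log2 fold change of −0.33 (SE 0.09, adjusted p = 0.00132, edgeR), and MCM10, which helps to fire loaded origins, one of −0.26 (SE 0.09, adjusted p = 0.0086, edgeR). GINS4 was lower by less, with a log2 fold change of −0.23 (SE 0.08, adjusted p = 0.00992, edgeR). With DESeq2, MCM10 and GINS4 did not pass (adjusted p = 0.0573 and 0.0529), and with library totals alone CDC45, MCM10 and GINS4 were at −0.19, −0.13 and −0.10 (adjusted p = 0.0697, 0.215 and 0.284). GINS3 was at 28.8 and 29.3 CPM in shControl and 29.1 and 25.7 CPM in shYEATS2, and did not pass the test. The 4 GINS subunits act as a single complex with each subunit present once, and the count ratio of GINS1 to GINS4 was 1.05 and 1.12 in shControl and 0.933 and 0.943 in shYEATS2. Of the 5447 exonic bases of GINS4, 1276 overlap genes on the other strand.

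Of the 9 DNA polymerase and primase members, 7 fell, PRIM2 rose and PRIM1 did not pass the test, with a median log2 fold change of −0.41. POLA1 (ENSG00000101868, chrX:24693873-24996986), the catalytic subunit of polymerase alpha, was at 50.7 and 53.0 CPM in shControl and 33.4 and 36.6 CPM in shYEATS2. The groups did not overlap, and the log2 fold change was −0.58 (SE 0.08, adjusted p = 5.47e-09, edgeR). The other polymerase members that fell were POLD3 (−0.57), POLE2 (−0.57), POLD1 (−0.49), POLE (−0.41), POLA2 (−0.41) and POLD2 (−0.39). POLA1, POLD1 and POLE are the catalytic subunits of the replicative polymerases, and the others are accessory subunits. POLA2 and POLE2 rested on the fewest counts, 51 each in the shallowest library. POLE2 did not pass with DESeq2 (adjusted p = 0.0736), and with thinned counts it was at −0.19 (adjusted p = 0.522). POLA2 did not pass with DESeq2 (adjusted p = 0.180), limma-voom (adjusted p = 0.052) or library totals alone (−0.27, adjusted p = 0.161), and it shares 2012 of its 12006 exonic bases with other genes on its strand. POLD1 shares 426 of its 4934 exonic bases in the same way.

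The primase subunits, which lay down the RNA primers for POLA1, did not follow it. PRIM2 (ENSG00000146143, chr6:57314805-57646850), the large subunit of primase, was at 24.3 and 25.8 CPM in shControl and 28.7 and 31.3 CPM in shYEATS2. Both shYEATS2 libraries were above both controls, and the log2 fold change was 0.25 (SE 0.09, adjusted p = 0.0164, edgeR). It did not pass with DESeq2 (adjusted p = 0.0722) or with edgeR without a filter on low counts (0.20, adjusted p = 0.100). Leaving out a library gave values from 0.19 (without shYEATS2 replicate 2) to 0.31 (without shYEATS2 replicate 1). PRIM1, the catalytic subunit of primase, was at 12.5 and 11.6 CPM in shControl and 11.6 and 12.2 CPM in shYEATS2 and did not pass the test. It shares 501 of its 3309 exonic bases with other genes on its strand. The count ratio of PRIM2 to POLA1, chosen after the values were seen, was 0.480 and 0.488 in shControl and 0.861 and 0.856 in shYEATS2.

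The sliding clamp fell and its loader was uneven. PCNA (ENSG00000132646, chr20:5114953-5126626), the ring that tethers polymerases to DNA, had the highest shControl level per length of the 51 members, at 139 RPKM. It was at 193 and 196 CPM in shControl and 120 and 117 CPM in shYEATS2, and is described by library although the values chose it. The log2 fold change was −0.72 (SE 0.06, adjusted p = 7.39e-16, edgeR), 60.8% of the control level.

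Replication factor C, the RFC1 to RFC5 complex that opens PCNA and places it on primed DNA, held both a large fall and 3 members that did not pass the test. RFC3 (ENSG00000133119, chr13:33818069-33966558) was at 47.3 and 48.5 CPM in shControl and 26.6 in both shYEATS2 libraries. The separation was wide, and the log2 fold change was −0.85 (SE 0.08, adjusted p = 6.55e-14, edgeR), second only to MCM5 among members. RFC5 fell by less (−0.39, SE 0.09, adjusted p = 0.000235, edgeR).

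RFC1, RFC2 and RFC4 had log2 fold changes of 0.00, −0.17 and 0.04 and did not pass the test. RFC2 was near the limit (adjusted p = 0.0505, edgeR), with both shYEATS2 libraries below both controls. It passed with at least 10 counts in every library (adjusted p = 0.0441) and with the replicate block (adjusted p = 0.0316). With DESeq2 (adjusted p = 0.161) and library totals alone (−0.04, adjusted p = 0.706) it did not. RFC4 was at 41.2 and 43.7 CPM in shControl and 44.3 and 42.8 CPM in shYEATS2. RFC3 and RFC4 belong to the same complex, and their count ratio, chosen after the values were seen, was 1.15 and 1.11 in shControl and 0.600 and 0.620 in shYEATS2.

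Okazaki fragment processing fell in both of its members. FEN1 (ENSG00000168496, chr11:61792911-61797238), the nuclease that removes the flap at the end of each fragment, was at 80.6 and 77.8 CPM in shControl and 48.7 and 47.1 CPM in shYEATS2. The groups were far apart, and the log2 fold change was −0.72 (SE 0.07, adjusted p = 1.4e-13, edgeR). LIG1, the ligase that seals the fragments and which was described by library after its values were seen, was at 62.3 and 61.8 CPM in shControl and 42.9 and 35.6 CPM in shYEATS2. Its log2 fold change was −0.64 (SE 0.08, adjusted p = 2.2e-10, edgeR).

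Replication protein A, the trimer that covers single-stranded DNA, had a member in each class. RPA1 (ENSG00000132383, chr17:1829702-1900082), the large DNA-binding subunit, was at 141 and 144 CPM in shControl and 123 and 126 CPM in shYEATS2. The log2 fold change was −0.20 (SE 0.06, adjusted p = 0.00739, edgeR), and with library totals alone it was −0.06 and did not pass (adjusted p = 0.401). RPA2 (ENSG00000117748, chr1:27891524-27914746), the middle subunit, which is phosphorylated under replication stress, was at 36.4 and 40.8 CPM in shControl and 45.6 and 46.4 CPM in shYEATS2.

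RPA2 was higher in both shYEATS2 libraries than in either control, with a log2 fold change of 0.25 (SE 0.08, adjusted p = 0.00589, edgeR). Without shControl replicate 1 it was 0.17 and did not pass (adjusted p = 0.274). RPA3, the small subunit, had a log2 fold change of 0.14 (SE 0.07, adjusted p = 0.100, edgeR). The count ratio of RPA2 to RPA1, chosen after the values were seen, was 0.258 and 0.282 in shControl and 0.370 and 0.367 in shYEATS2.

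Deoxynucleotide supply fell in 3 of its 4 members and rose in TK1. RRM2 (ENSG00000171848, chr2:10120698-10211725), the regulated subunit of ribonucleotide reductase, was at 186 and 194 CPM in shControl and 135 and 129 CPM in shYEATS2. No values overlapped, and the log2 fold change was −0.53 (SE 0.06, adjusted p = 5.27e-11, edgeR). RRM1, the catalytic subunit, fell by less (−0.22, SE 0.06, adjusted p = 0.00259, edgeR) and did not pass with library totals alone (−0.09, adjusted p = 0.238). The count ratio of RRM2 to RRM1 was 1.2 and 1.16 in shControl and 1.0 and 0.899 in shYEATS2.

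TYMS, which makes thymidylate from deoxyuridylate, and TK1, which makes it by salvage of thymidine, differed in sign. TK1 (ENSG00000167900, chr17:78174091-78187233) was at 94.8 and 98.7 CPM in shControl and 123 and 106 CPM in shYEATS2, with a log2 fold change of 0.25 (SE 0.07, adjusted p = 0.00127, edgeR). The shYEATS2 libraries were both above the controls but differed among themselves, and without shYEATS2 replicate 1 the log2 fold change was 0.12 and did not pass (adjusted p = 0.099). TYMS, of whose 2421 exonic bases 1160 overlap genes on the other strand, had a log2 fold change of −0.24 (SE 0.06, adjusted p = 0.00161, edgeR), and with library totals alone it was at −0.10 and did not pass (adjusted p = 0.168). The count ratio of TK1 to TYMS, chosen after the values were seen, was 0.773 and 0.806 in shControl and 1.17 and 1.03 in shYEATS2.

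**Figure D3:**
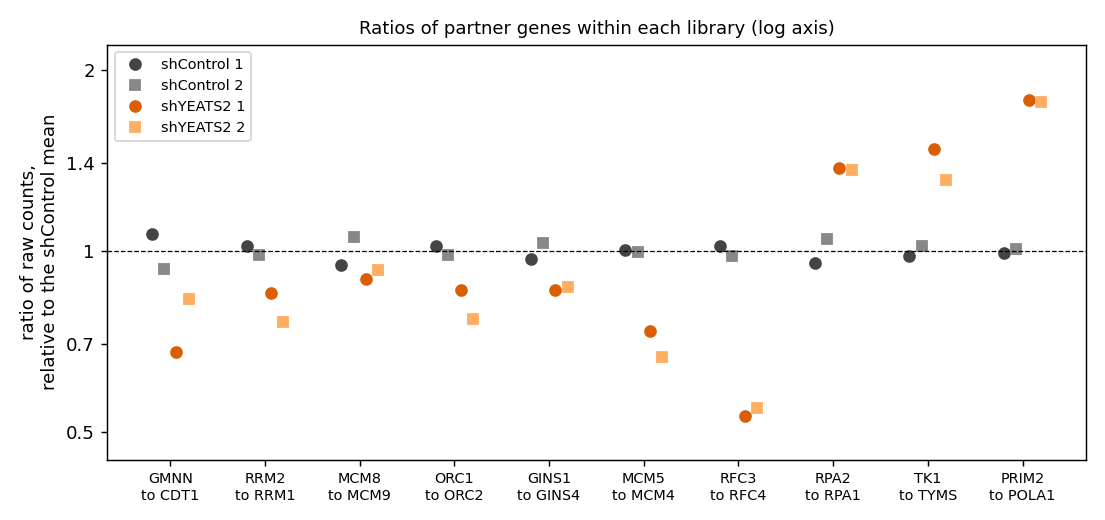
Ratio of raw counts of partner genes within each of the 4 libraries, divided by the mean ratio of the shControl libraries and drawn on a log axis, with 1 point per library. Relative to that mean, the shYEATS2 mean is 0.540 for RFC3 to RFC4 and 1.77 for PRIM2 to POLA1.

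Of the regulators, E2F1, E2F2 and UHRF1 fell by small amounts in edgeR and E2F3 did not pass the test. None of the 3 falls held with DESeq2 (adjusted p = 0.0928, 0.0851 and 0.063) or with library totals alone, where they were at −0.08, −0.20 and −0.05. E2F2 (ENSG00000007968, chr1:23506438-23531233), an activating E2F, was at 15 and 15.8 CPM in shControl and 13 and 10.9 CPM in shYEATS2. The groups did not overlap, and the log2 fold change was −0.34 (SE 0.11, adjusted p = 0.010, edgeR). E2F1 had a log2 fold change of −0.21 (SE 0.08) and UHRF1, which guides maintenance methylation to newly made DNA, one of −0.19 (SE 0.07). E2F3 had one of 0.17 (SE 0.08, adjusted p = 0.0631, edgeR).

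Members with and without the E2F-type letters shown above were set side by side as a description. MCM4, MCM5, GINS4, POLD3, RPA2 and RPA3 were not searched and are in neither group. The counts thus leave out MCM5, the largest fall, and RPA2, which rose. The 21 members with a match had a median log2 fold change of −0.41 (range −0.85 to 0.17), with 16 lower and 0 higher by edgeR (1 higher at an unadjusted p under 0.05) and 11 lower and 0 higher by DESeq2. The 24 members whose promoters held no match had a median of −0.23 (range −0.81 to 0.25). Of these, 14 were lower and 3 higher by edgeR (3 higher at an unadjusted p under 0.05), and 11 lower and 1 higher by DESeq2. By edgeR 66.7% of all members were lower, beside 23.6% lower and 22.6% higher of all tested genes. By DESeq2 17.3% of all tested genes were lower and 16.5% higher. The difference between the groups with and without a match was not tested. The ranges overlapped widely: MCM2 and FEN1 held no match, whereas CDT1, MCM8, ORC3, GINS3 and E2F3 held one and did not pass the test.

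**Figure D4:**
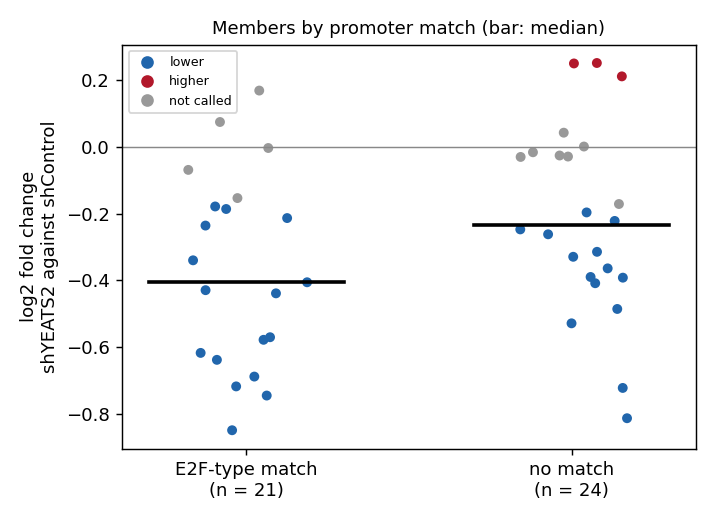
Log2 fold change of shYEATS2 over shControl for the 45 members with a RefSeq promoter, split by whether the 300-base window held an E2F-type match, with 1 point per gene coloured by its edgeR call and a bar at the median. The medians are −0.41 with a match and −0.23 without, and the points overlap.

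A list of 58 other genes of DNA replication, holding firing kinases, fork protection, accessory polymerase subunits, clamp loaders, topoisomerases, chromatin assembly, licensing control, nucleotide enzymes and E2F partners, had calls in both directions. Of the 57 that were tested, 25 (43.9%) were lower, against 23.6% of all tested genes, and 11 (19.3%) higher, against 22.6%, with a median log2 fold change of −0.14. Limited to genes that averaged 10 CPM or more, the 3 largest falls were in DUT, which removes dUTP from the nucleotide pool, CLSPN, an adaptor of the replication checkpoint, and HELLS, a chromatin remodeller. DUT was at 161 and 157 CPM in shControl and 92.1 and 89.0 CPM in shYEATS2 (log2 fold change −0.81). CLSPN was at 55.1 and 59.1 against 34.4 and 35.3 CPM, and HELLS at 48.2 and 48.1 against 28.3 and 31.2 CPM (log2 fold change −0.71 for each). The list of other replication genes was chosen with earlier results of these data known.

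Under the same limit the 3 largest rises were in TOP1, E2F6 and DBF4. DBF4, the activating subunit of the kinase that phosphorylates MCM2-7 to fire origins, was at 41.1 and 43.1 CPM in shControl and 58.7 and 64.5 CPM in shYEATS2 (log2 fold change 0.54), opposite in direction to its substrates. E2F6, a repressive E2F, was at 16.3 and 16.8 against 23.3 and 25.5 CPM (log2 fold change 0.55). TOP1, which relieves torsion ahead of the fork, was at 105 and 107 against 156 and 164 CPM (log2 fold change 0.59).

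Mitotic genes, which peak later in the cycle, went the other way. Of 28 such genes 27 were tested, and 22 (81.5%) were higher and 0 lower, by edgeR and by DESeq2, against 22.6% higher and 23.6% lower of all tested genes in edgeR and 16.5% and 17.3% in DESeq2, with a median log2 fold change of 0.48. At an unadjusted p under 0.05, 1 of them was lower by either tool. Within a library, the ratio of the summed counts of all members to those of the mitotic genes was 1.28 and 1.29 in shControl and 0.825 and 0.781 in shYEATS2. For MCM2-7 over the mitotic genes it was 0.333 and 0.334 in shControl and 0.173 and 0.159 in shYEATS2. Both sums and their ratios were chosen after the values were seen. The list of mitotic genes was itself chosen with earlier results of these data known, so its counts are a description and not an independent contrast.

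**Figure D5:**
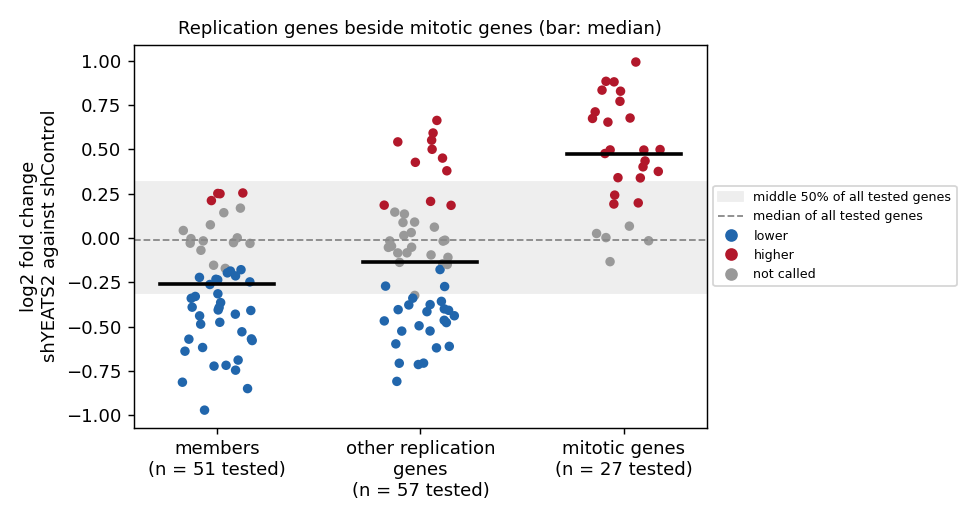
Log2 fold change of shYEATS2 over shControl for the 51 members, the other replication genes and the mitotic genes, with 1 point per tested gene coloured by its edgeR call, a bar at each median and a grey band for the middle 50% of all tested genes. The medians are −0.26, −0.14 and 0.48, beside −0.01 over all 17058 tested genes.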

How the data were processed

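Total RNA was extracted with TRIzol, and stranded mRNA libraries were sequenced as 150 base read pairs. The authors used STAR for alignment to the GRCh38 build, HTSeq for counting and FastQC for read quality. The deposited values are raw counts per gene. The annotation release and strand setting are not given in the sources used here, so that bases shared by overlapping genes could be lost to both. Unassigned tallies (7.64 to 8.57% with no feature, 4.31 to 4.61% ambiguous) were left out of totals and tests.

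Counts of all genes were fitted in R 4.3.3 with edgeR 4.0.16 (filterByExpr, TMM, robust quasi-likelihood test, Benjamini-Hochberg adjustment over 17058 genes, calls at an adjusted p under 0.05). The common biological coefficient of variation was 4.95%. SE is the absolute unshrunk log2 fold change, which can differ slightly from the printed one, over the square root of F. CPM used TMM-scaled totals, and RPKM used GENCODE exon lengths. With 2 libraries a group, an exact permutation test cannot go below 0.333, so single values were given without such a test. Replicates differed beyond counting noise (chi-square per degree of freedom 5.95 and 5.39). Alternatives were DESeq2 1.42.0, limma-voom (limma 3.58.1), other scalings, filters and thresholds, thinned counts, a replicate block and leaving out each library. The scripts were tested on simulated data.

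The members and lists were chosen with earlier results of these data known. Every member was named in its role group. Libraries and full statistics were given for MCM2-7, for the largest called fall and rise of each role, and for members called against the majority. Libraries and log2 fold changes alone were given for the 3 largest falls and rises among other replication genes of at least 10 CPM. Values of other members were added after they were seen.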

Additional observations from a re-analysis of the deposited data

How the results depend on the processing

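Of the 38 called members, 20 kept their call under every alternative fit, 25 under every scaling, and 0 turned direction. With library totals alone 21 members were lower and 7 higher with a median of −0.13. Of 57 other replication genes 23 were then lower and 17 higher, against 15% and 31.9% of all tested genes. ORC6, PRIM2, RPA2 and TK1 each lost their call in at least 1 fit: no filter, DESeq2 and an adjusted p under 0.01 each left 2 members higher. At a limit of 2-fold, 0 members and 0 other replication genes were lower or higher by edgeR, against 3.7% and 5.99% of all tested genes. Shares of all tested genes were taken only for edgeR, DESeq2 and library totals, so counts under other fits cannot be set against them. Leaving out each library in turn gave 23 to 34 members lower and 0 to 4 higher (0 without shControl replicate 1, where 1 passed unadjusted), with medians from −0.35 (without shYEATS2 replicate 1) to −0.25. There the lone library was assumed to vary like the others, and the cause was not tested. The calls of ORC4, ORC6, CDC6, MCM10, GINS4, POLA2, PRIM2, RPA1, E2F1 and UHRF1 did not hold when either shControl library was left out.

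The replicate block gave 35 members lower and 5 higher with a median of −0.27, and the share of all tested genes was not taken for it. Libraries with the same number did not deviate together (correlation −0.018), so the numbers were not taken as pairs.

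Members that did not pass the test changed sign as follows. With library totals alone ORC2 was at 0.10, ORC3 at 0.13, ORC5 at 0.12, MCM9 at 0.11, GINS3 at 0.066 and PRIM1 at 0.11. Thinning to the smallest total put ORC2 at 0.022 and PRIM1 at 0.0040. ORC3 was at 0.0033 with DESeq2 size factors, 0.0099 with upper quartile scaling and 0.0067 with limma-voom, while no filter put RFC1 at −0.048 and RFC4 at −0.0055. Leaving out a library ranged over −0.094 to 0.032 for ORC2, −0.16 to 0.090 for ORC3, −0.094 to 0.067 for ORC5, −0.086 to 0.17 for CDT1, −0.13 to 0.075 for MCM9, −0.084 to 0.027 for PRIM1, −0.064 to 0.056 for RFC1 and −0.0077 to 0.078 for RFC4. Depth limited POLA2 and POLE2 most, with 51 counts each in the shallowest library.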
